A study of Caenorhabditis elegans with 2 samples.

Results

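Peaks of tagged XND-1 had 246 summits inside protein-coding genes and away from their promoters. The list that passed the irreproducible discovery rate (IDR) procedure held 1841 peaks, so this was a share of 13.4% (exact Clopper-Pearson 95% interval 11.8% to 15%). A peak was counted here when its summit lay in an intron, coding exon or UTR of a protein-coding gene. It also had to lie outside every promoter window, taken from 500 bp before to 200 bp after a protein-coding 5′ end, and more than 200 bp from any snRNA, snoRNA or tRNA gene. The choice used position only and no peak score. The other peaks were 1122 promoter summits, 381 intergenic summits and 92 summits near those small RNA genes.

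The data came from chromatin immunoprecipitation and sequencing of whole Caenorhabditis elegans hermaphrodites of strain QP0661. The worms were young adults, taken 50 h after release from starved L1 arrest, and stably carried a C-terminal GFP-FLAG fusion of XND-1 that was precipitated with an anti-GFP antibody. There was 1 group with 2 biological replicates, and the promoter of the transgene is not given in the sources used here. Whole worms hold germline and soma, and the lists do not separate them.

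In the germline of the worm, XND-1 associates with chromatin, mainly that of autosomes, and is required for normal crossing over on X. Introns of worm genes, the first intron in particular, can hold enhancers and promoters of shorter transcripts. Because trans-splicing removes the start of many worm transcripts, a summit inside a gene can lie close to a start of transcription that the annotation does not show.

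Many of the strongest intronic peaks held short words that also recur at promoter summits of the same data. Words of 6 bases were ranked on promoter summits alone, by the excess of 101-bp summit windows over windows 300 bp away, each counted on both strands. The first was GAGACC, found at 244 of 1122 promoter summits. The second was GGCGCA, found at 240, and the third was ACCGTA, found at 235. The following stretches come from the 6 highest intronic or coding-exon summits on chromosomes II to V and X that hold a word, all of them intronic, and show the words in their sequence. Each is 30 bases long, 5′ to 3′ on the strand that reads the word, from the RefSeq WBcel235 genome (ce11), with the word in capitals.

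C44B9.2, III:10877736-10877765, plus strand: caacttccttatGAGACCcgactgcaaata

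C44B9.2, III:10877704-10877733, plus strand: ggtagttttaaaGGCGCAtggccggggatg

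C44B9.2, III:10877689-10877718, minus strand: gcctttaaaactACCGTAgcccgccaaaca

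T06D8.10, II:11241622-11241651, minus strand: gtaatccttaaaGGCGCAcactttttcgca

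T06D8.10, II:11241679-11241708, plus strand: aatttttcagctACCGTActcgcaattatt

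spds-1, II:12808975-12809004, minus strand: agttttcgtgacGAGACCcgctgcatattg

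W01D2.3, II:14801165-14801194, minus strand: tagttctttaaaGGCGCAcgccttcttgct

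W01D2.3, II:14801181-14801210, minus strand: aattaaatttttACCGTAgttctttaaagg

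C46A5.1, IV:7764493-7764522, plus strand: ccacgtcgtggcGAGACCtccgcacaaaaa

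C46A5.1, IV:7764474-7764503, plus strand: acttcaaaacaaACCGTAgccacgtcgtgg

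ilkp-1, II:11050830-11050859, plus strand: cttcagtttaaaGGCGCAcgctggttgttt

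The 4 GGCGCA stretches share the letters TTAAAGGCGCA. That longer form occurred within 50 bp of 35 gene-body summits (14.2%), against 6 windows 300 bp away (2.44%) and 106 promoter summits (9.45%). The 4 stretches are among the 35, so the form was seen at summits that it was then counted at. Taken with the 5 bases most often before it, GAGACC was found at 6 gene-body summits (2.44%), 1 flank window (0.407%) and 20 promoter summits (1.78%). The third word with the 5 bases most often before it was found at 3 gene-body summits (1.22%), 1 flank window (0.407%) and 3 promoter summits (0.267%). The longer forms were not tested. Some of these stretches are repeated in the genome and some are not. The 16 bases centred on GGCGCA occur 68 times in the genome for T06D8.10, 34 times for W01D2.3, and 5 times each for C44B9.2 and ilkp-1. Those around ACCGTA occur 9 times for T06D8.10 and 1 time for W01D2.3, and those around GAGACC 2 times for spds-1. Those around GAGACC and around ACCGTA occur 1 time each for C44B9.2 and for C46A5.1. Over 55 word sites at intronic and coding-exon summits of those chromosomes, 22 had a single copy, the median was 2 copies, and 11 had at least 10. The most repeated had 292 copies, among them the GGCGCA site of Y75B8A.33. How repeated sequence bears on read placement at these sites was not tested.

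Y75B8A.33, III:12367117-12367146, plus strand: gtaatctttaaaGGCGCAcacctttttgaa

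The highest-scoring gene-body peak lay in intron 4 of pals-1 (I:11580345), a member of a gene family linked to the response to intracellular pathogens. Introns are numbered on the longest transcript of the host. Its signalValue, the peak score of the authors' caller with no unit named, was 2085 in the IDR-thresholded list, 988 in replicate 1 and 1100 in replicate 2. This was rank 2 of the whole list. The peak in intron 5 of C44B9.2 (III:10877743) had 1416 in the list and 651 and 773 in replicates 1 and 2. These 2 were the only gene-body peaks among the 25 highest scores, and 5 were among the 100 highest.

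The other 3 of those 5 lay in klp-7, alh-6 and Y62F5A.9. The klp-7 gene encodes a kinesin that depolymerises microtubules, and its peak (III:10807422) scored 1038 in the list, 471 in replicate 1 and 566 in replicate 2. It lay in the first intron, 919 bp upstream of an internal 5′ end of klp-7, and held none of the words. The alh-6 gene encodes a mitochondrial enzyme of proline breakdown, and its peak (II:1306756) scored 907, with 480 and 432 in the replicates. That summit lay in the 3′ UTR of alh-6 and 620 bp upstream of emc-2, which encodes a subunit of the ER membrane complex. The peak in intron 2 of Y62F5A.9 (II:11537388) scored 786, with 316 and 475 in the replicates, a wider gap between replicates than at the other 4.

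Ranks 6 to 20 among gene-body peaks had scores from 714 to 371. They included ptpn-22 (IV:1738680, 714), which encodes a protein tyrosine phosphatase, T06D8.10 (II:11241677, 646) and spds-1 (II:12808969, 592), which encodes spermidine synthase. The nuclear hormone receptor gene nhr-64 (I:3105736) had 584, W01D2.3 (II:14801171) 566 and gadr-3 (III:6283247) 562. A peak in the 3′ UTR of T28D6.7 (III:11344290) scored 561 and held all 3 words. The intronic peaks of C46A5.1 (IV:7764527), ilkp-1 (II:11050884) and M117.3 (IV:11822651) scored 552, 518 and 497. The remaining 5 were Y71H2AM.6 (III:2782054, 474), F23C8.8 (I:2432345, 470), pyp-1 (IV:9998722, 421), znf-236 (I:1153270, 420) and tars-1 (II:11695337, 371). Here pyp-1 encodes an inorganic pyrophosphatase and tars-1 a threonyl-tRNA synthetase. Of the 20 leading peaks, the 18 in introns spread over many kinds of genes, and all 20 were listed in both replicates.

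Gene-body peaks were spread thinly over genes. They fell in 232 of 19973 protein-coding genes, 1.16% of the genes in the annotation. Among the hosts, 14 held 2 gene-body summits and none held more. The paired summits lay close together in znf-236 (420 and 262), ptpn-22 (714 and 129) and mdt-19 (279 and 140), each pair inside 1 intron. They lay far apart in plx-1, with 94.0 in the 3′ UTR and 70.5 in the first intron.

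Introns held most of the gene-body summits, and coding exons few for their length. Introns held 161 of the 246 (65.4%), 3′ UTRs 41 (16.7%), coding exons 39 (15.9%) and 5′ UTRs 5 (2.03%). Rates were taken per Mb of sequence that passes the same position rule. Introns had 5.44 summits per Mb (exact Poisson 95% interval 4.63 to 6.34) and coding exons 1.87 (1.33 to 2.56). The intron rate was 2.90 times that of coding exons (exact 95% interval 2.04 to 4.23, exact conditional test of rates, two-sided, adjusted p = 6.23e-10 over 8 tests). In the top peaks of replicate 2 alone, without replicate 1, the ratio was 1.85, and in those of replicate 1 alone it was 2.29. It was 11.8 among the 921 strongest peaks and 1.24 when the pooled list was read to 2 times that length, and each of these 4 ratios passed the threshold. Summits are not independent replicates, so these p-values describe this list.

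Summits in 3′ UTRs were denser than in introns. The 3′ UTRs had 15 summits per Mb (10.8 to 20.4), 2.76 times the intron rate (exact 95% interval 1.91 to 3.91, exact conditional test, adjusted p = 2.66e-07 over 2 tests added after the rates had been seen). It was not found in the upper part of the list. Among the 921 strongest peaks 8 summits lay in 3′ UTRs and 67 in introns, a ratio of 1.29 that did not pass the exact test (adjusted p = 0.529). In 5′ UTRs, 5 summits gave 14.1 per Mb with an interval of 4.58 to 32.9, too wide to set them apart from either.

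First introns had more summits for their length than later introns. A base counted as first-intron sequence where it lay in the first intron of the longest transcript of any protein-coding gene, overlapping genes included. By the numbering of the assigned host alone, 57 summits were in first introns. With overlapping genes included, first introns held 60 summits, 9.22 per Mb (7.03 to 11.9), and later introns 101, 4.37 per Mb (3.56 to 5.31). The ratio was 2.11 (exact 95% interval 1.51 to 2.93, exact conditional test, adjusted p = 1.56e-05). The excess was not seen farther from 5′ ends. With windows widened to 1000 bp upstream and 500 bp downstream, first introns held 16 summits and later introns 83, and the ratio was 0.949 (exact conditional test, adjusted p = 1).

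**Figure D1:**
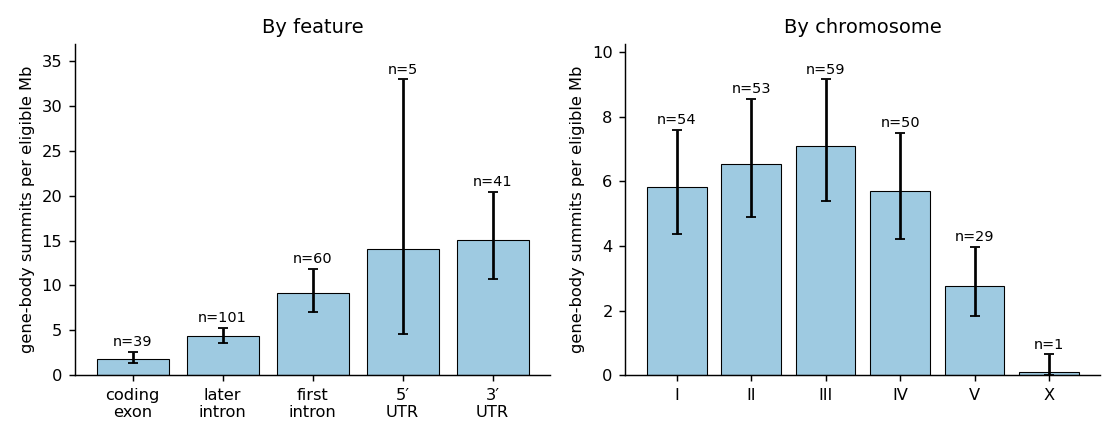
Gene-body summits per Mb of eligible sequence by feature (left) and by chromosome (right), with exact Poisson 95% intervals as error bars and the number of summits above each bar. Coding exons had the lowest rate among features, 1.87, and the X chromosome the lowest among chromosomes, 0.116.

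Introns that held a summit were long. Their median length was 921 bp, with a range of 40 to 12477 bp, against a median of 64 bp over all 103646 introns. Host genes were also long, at a median of 3954.5 bp against 2027 bp over all protein-coding genes. A longer sequence has more room for a summit, and no test corrected for length.

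Chromosomes I to IV held similar densities of gene-body summits, from 5.69 per Mb on IV to 7.10 on III, with overlapping intervals. Chromosome V had 2.76 per Mb (1.85 to 3.96), from 29 summits. The X chromosome held 1 summit in 8.6 Mb, 0.116 per Mb (0.00294 to 0.648). That summit lay in intron 2 of elk-2 (X:107366) and had a score of 80.5 in the list, 51.9 in replicate 1 and 26.6 in replicate 2. Its score was below the median of gene-body peaks, and it held the word GAGACC. Of the other classes, 9 of 1122 promoter summits and 0 of 381 intergenic summits lay on X, and 10 of 1841 in the whole list.

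Along host genes, the rate was higher in the outer parts than in the middle. With each gene cut into 5 equal parts from its 5′ end, the counts were 58, 32, 38, 29 and 89. Per Mb of eligible sequence the rates were 7.25 (exact Poisson 95% interval 5.50 to 9.37), 2.85 (1.95 to 4.02), 3.30 (2.34 to 4.53), 2.49 (1.67 to 3.58) and 7.95 (6.38 to 9.78). The intervals of both outer parts lay above those of the 3 inner parts, and this was not tested. Per eligible base, no difference was found between the portions either side of the middle of the host. The rate was 4.6 per Mb for 115 summits on the 5′ side and 4.58 for 131 on the 3′ side, a ratio of 1.00 (exact 95% interval 0.775 to 1.3, exact conditional test, adjusted p = 1). The ratio moved with the setting. In the same exact test it was 1.3 with a promoter window of 200 bp upstream and 100 bp downstream (adjusted p = 0.0149), 0.668 with the widened window (adjusted p = 0.0230) and 0.747 without replicate 1 (adjusted p = 0.0168). With the pooled list read to 2 times the length it was 0.690 (exact conditional test, adjusted p = 2.72e-07). Among the 921 strongest peaks it was 1.55, from 46 and 34 summits, and did not pass the exact test (adjusted p = 0.113).

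Summits in 3′ UTRs lay near the end of the host, at a median of 114 bp from its 3′ end. Beyond that end, the next protein-coding gene lay on the opposite strand for 33 of 40 hosts (82.5%, exact 95% interval 67.2% to 92.7%). Over all 14005 genes with eligible 3′ UTR sequence the share was 54.9%. The gap to the next gene had a median of 35 bp for these hosts, with 13 overlapping that gene, against 574 bp over all such genes. Of the 41 summits in 3′ UTRs, 4 lay 501 to 1000 bp upstream of another gene's 5′ end. The position rule drops summits up to 500 bp upstream of any protein-coding 5′ end. It therefore removes 3′ UTR summits that have a close next gene on the same strand. The comparison with all such genes was not matched for this, and these shares were not tested.

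The leading 3′ UTR peaks after alh-6 and T28D6.7 were those of ift-74 and lin-29. The ift-74 gene, for a protein of intraflagellar transport, had 337 in the list and 179 and 159 in replicates 1 and 2 (II:6683125). The lin-29 gene, for a zinc finger factor of developmental timing, had 217, with 112.3 and 110.8 in the replicates (II:11917871), and another 3′ UTR summit at 71.7. The 41 scores ran from 65.7 to 907 with a median of 85.6.

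None of the coding-exon peaks reached the scores of the leading intronic ones. Their 39 scores ran from 65.9 to 142 with a median of 83.4. The highest was that of lmd-2 (I:4645481), with 142 in the list and 80.3 and 64.2 in replicates 1 and 2. Next came pigq-1 (IV:11146203), for an enzyme subunit of GPI anchor synthesis, with 133, 69.9 and 64.4, and F10G7.5 (II:4696210) with 133, 88.7 and 49.9. The 5′ UTR summits were 2 in C37C3.9, with 265 and 108, and 1 each in C34C12.2 (100), the nucleoporin gene npp-1 (77) and R08C7.12 (66.8). Both C37C3.9 summits overlapped the same row of the replicate 1 list (134), and npp-1 had 16.8 in replicate 1 against 60.7 in replicate 2.

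Gene-body peaks were weaker than promoter and intergenic peaks. Their scores ran from 65.7 to 2085 with a median of 100 (quartiles 76.4 and 144), against medians of 138 for promoter and 132 for intergenic peaks. Above the list median of 128 lay 80 of 246 gene-body peaks (32.5%, exact 95% interval 26.7% to 38.8%) and 602 of 1122 promoter peaks (53.7%, 50.7% to 56.6%). The difference was −21.1 percentage points (two-sided Fisher's exact test, adjusted p = 6.69e-09). Intergenic peaks had 205 of 381 above the median (53.8%), a difference of −21.3 points (Fisher's exact test, adjusted p = 5.44e-07). Within the 921 strongest peaks, against the median of those, the differences were −9.74 points to promoter peaks (adjusted p = 0.181) and −9.21 points to intergenic peaks (adjusted p = 0.196), and neither passed Fisher's exact test.

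**Figure D2:**
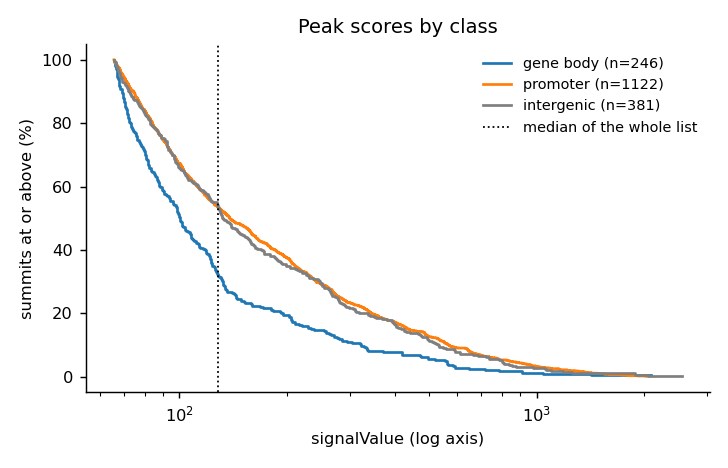
Share of summits, in percent, with a signalValue at or above the value on the log-scaled horizontal axis, for gene-body, promoter and intergenic peaks. At the dotted list median of 128 the gene-body line stands at 32.5%, below the promoter line at 53.7% and the intergenic line at 53.8%.

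Within gene bodies, intronic peaks had the highest scores. In introns 67 of 161 peaks (41.6%) were above the list median, with a median score of 113. In coding exons 4 of 39 (10.3%) and in 3′ UTRs 8 of 41 (19.5%) were above it, and in 5′ UTRs 1 of 5. These differences between features were not tested.

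Down the longer list of pooled peaks, which also holds background regions, gene bodies took a growing share. They held 5.00% of the 100 highest peaks, 7.75% of ranks 101 to 500, 12.6% of ranks 501 to 1000 and 17.5% of ranks 1001 to 1841. The share rose to 31.1% in ranks 1842 to 3682 and 51.1% in ranks 3683 to 7364. It was 59.8% in ranks 7365 to 14728 and 61.2% in the last bin, from rank 14729. The eligible gene bodies make up 53.4% of the genome, and the shares from rank 7365 on lay above that. Coding exons took none of the gene-body summits in the first 500 ranks and 21.8% in ranks 1001 to 1841. They took 51.5% in ranks 3683 to 7364, 50.6% in ranks 7365 to 14728 and 47.2% in the last bin. Coding exons make up 20.8 Mb of the 53.6 Mb of eligible sequence. These bins were chosen with the data known.

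Gene-body peaks recurred in both replicates less often than other peaks. Among as many top peaks of each replicate as the IDR-thresholded list holds, both replicates overlapped 172 of 246 gene-body peaks by at least 1 bp (69.9%, exact 95% interval 63.8% to 75.6%). They overlapped 945 of 1122 promoter peaks (84.2%), a difference of −14.3 points (Fisher's exact test, adjusted p = 1.34e-06), and 322 of 381 intergenic peaks (84.5%), a difference of −14.6 points (Fisher's exact test, adjusted p = 3.07e-05). With the top peaks of replicate 2 as the list, overlap with replicate 2 was given, and only overlap with replicate 1 could differ. The difference to promoter peaks was then −21.8 points. Among the 921 strongest peaks the difference to intergenic peaks was −6.83 points and did not pass Fisher's exact test (adjusted p = 0.196). Peak strength differed between the classes as given above, and its part in this difference was not tested.

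By feature, top peaks of both replicates overlapped 121 of 161 intronic peaks (75.2%), 25 of 39 in coding exons (64.1%) and 23 of 41 in 3′ UTRs (56.1%). Top peaks of neither replicate overlapped 3 gene-body peaks, in efsc-1, idpp-2 and the calmodulin gene cmd-1, with list scores of 67.1, 65.9 and 65.7. In the full lists, replicate 2 had a row at all 246 and replicate 1 at 245. The exception was yars-1 (I:14485992), the tyrosyl-tRNA synthetase gene, with 86.3 in the IDR-thresholded list, 48.8 in replicate 2 and no row in replicate 1.

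The nearest overlapping summit of each replicate lay at a median of 14 bp from the listed one. It lay within 50 bp for 204 peaks in replicate 1 and 206 in replicate 2. The list was made from both replicates and only the nearest summit was taken, so short distances are partly built in. The distance between the summits of the replicates was not measured. The scores had medians of 49.9 and 52.7 in replicates 1 and 2. Across the 245 peaks with a row in both, Spearman's rho was 0.632, given as a description because the peaks share libraries and were listed for their scores.

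**Figure D3:**
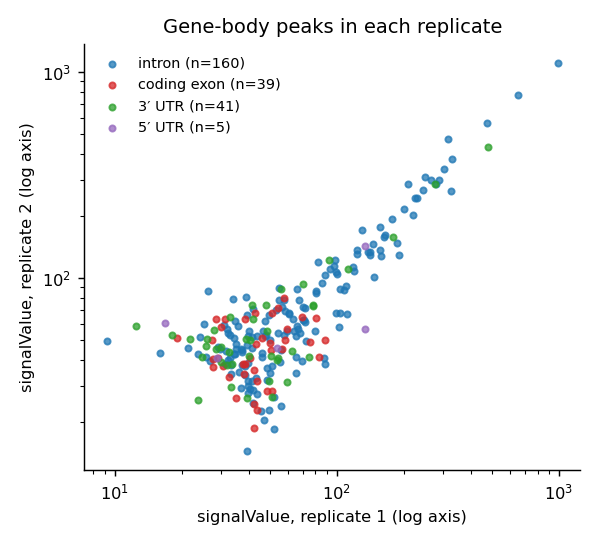
Scores of 245 gene-body peaks in replicate 1 (horizontal) and replicate 2 (vertical), both on log axes, coloured by feature. The strong peaks follow 1 line, up to 988 and 1100 for pals-1, while the weak ones below about 100 form a broad cloud that holds all coding-exon peaks.

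The words found at promoter summits were also concentrated at gene-body summits. GAGACC lay within 50 bp of 53 of 246 gene-body summits (21.5%, exact 95% interval 16.6% to 27.2%) and in 13 of the windows 300 bp away at higher coordinates (5.28%), a difference of 16.3 points (exact McNemar test, adjusted p = 6.88e-08 over 6 tests). At promoter summits it had 21.7%, a difference of −0.202 points (Fisher's exact test, adjusted p = 1). Of 530607 windows of 101 bp tiled over eligible gene bodies, 2.60% held it. Intergenic summits were not used to pick the words. They held GAGACC at 22.3%, GGCGCA at 23.4% and ACCGTA at 21.3%, and gene-body summits were not tested against them.

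GGCGCA showed nearly the same picture. It lay at 46 gene-body summits (18.7%) and in 7 flanking windows (2.85%), a difference of 15.9 points (exact McNemar test, adjusted p = 1.67e-08), with 1.46% of tiled windows. Promoter summits had 21.4%, a difference of −2.69 points that did not pass the test (Fisher's exact test, adjusted p = 0.464). With the pooled list read to 2 times the length, both words were less frequent at gene-body than at promoter summits by Fisher's exact test. By that exact test the difference was −5.25 points for GGCGCA (adjusted p = 0.00034) and −5.20 points for GAGACC (adjusted p = 0.00046). Among the 921 strongest peaks the differences turned to 9.97 points for GGCGCA (Fisher's exact test, adjusted p = 0.100) and 2.56 points for GAGACC (adjusted p = 0.694), and neither passed. For GAGACC the sign also turned without replicate 2 (2.59 points, Fisher's exact test, adjusted p = 0.470).

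ACCGTA was less frequent. It lay at 33 gene-body summits (13.4%) and in 9 flanking windows (3.66%), a difference of 9.76 points (exact McNemar test, adjusted p = 0.000364), with 2.75% of tiled windows. Promoter summits had 20.9%, a difference of −7.53 points (Fisher's exact test, adjusted p = 0.0114). In Fisher's exact test that last call was lost without replicate 1 (−4.88 points, adjusted p = 0.0947) and without replicate 2 (−5.79 points, adjusted p = 0.0534), and the difference turned to 2.64 points among the 921 strongest peaks (adjusted p = 0.694). All 3 words were picked for their excess at these same promoter summits, and that choice favours the promoter shares. The differences from promoter summits given for the words therefore cannot be read as differences between the classes alone. The words were also picked so that no pair shares 5 bases in a row on either strand. A match of letters is a description and not a shown binding site.

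**Figure D4:**
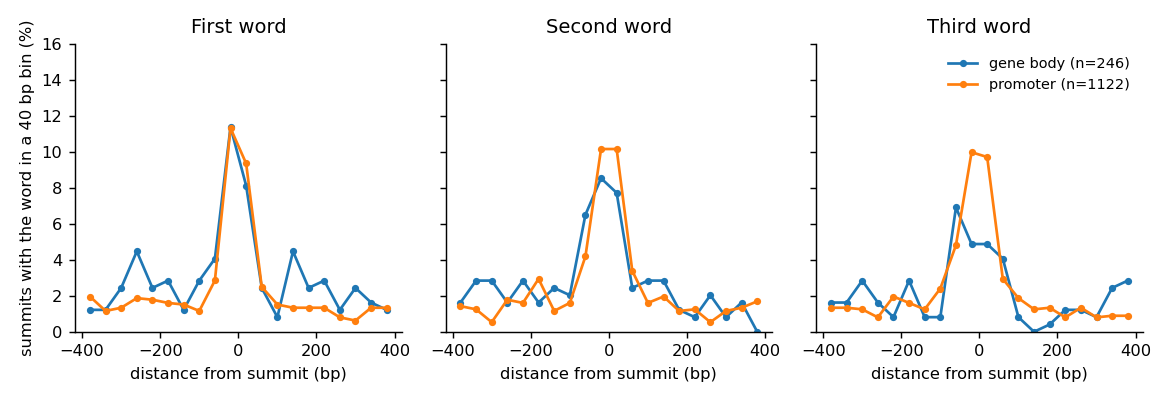
Share of gene-body and promoter summits, in percent, with each word in 40-bp bins of distance from the summit in bp, for the first word (GAGACC), the second (GGCGCA) and the third (ACCGTA). All 3 words peak near the summit, and in gene bodies the highest bins hold 11.4%, 8.54% and 6.91% of summits.

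Most summits with a word were intronic. At least 1 word lay at 72 of 161 intronic summits (44.7%), 4 of 39 in coding exons (10.3%), 6 of 41 in 3′ UTRs (14.6%) and none of 5 in 5′ UTRs. Over all features that made 82 of 246 (33.3%), against 24 of the flanking windows (9.76%) and 505 of 1122 promoter summits (45.0%). The difference between features was not tested.

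Gene-body peaks with a word were stronger than those without. Of the 82 with a word 45 were above the list median score (54.9%, exact 95% interval 43.5% to 65.9%), and of the 164 without, 35 (21.3%, 15.3% to 28.4%). The difference was 33.5 points (two-sided Fisher's exact test, adjusted p = 2.66e-07 over 2 added tests), and it ran from 19.6 to 31.9 points over the alternatives, all past the threshold. Of the 82 peaks with a word, 72 were intronic. Above the list median were 41.6% of intronic peaks, 10.3% of those in coding exons and 19.5% of those in 3′ UTRs. The test pooled all features, so it does not separate words from feature. Median scores were 90.7 with no word, 108 with 1, 220 with 2 and 187 with all 3, from 164, 42, 30 and 10 peaks. Strong peaks without any word were also present, led by klp-7 (1038), Y62F5A.9 (786), ptpn-22 (714), nhr-64 (584) and gadr-3 (562).

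**Figure D5:**
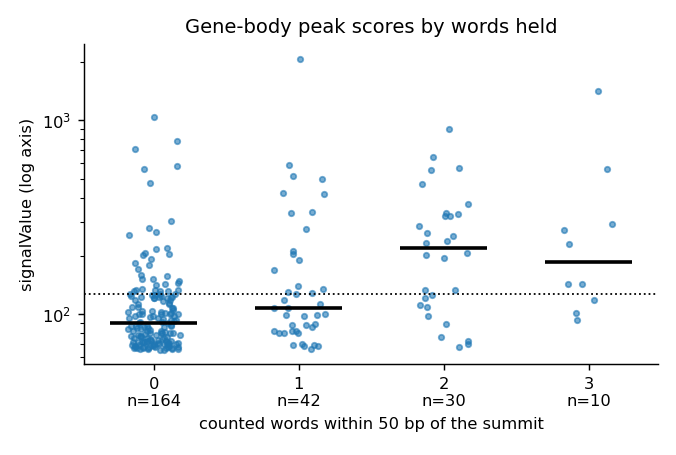
Score of each gene-body peak on a log axis against the number of the 3 words within 50 bp of its summit, with medians as bars and the list median of 128 as a dotted line. Most of the 164 peaks without a word lie below the dotted line, and the medians of peaks with 2 or 3 words, 220 and 187, lie above it.

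Some summits held more than 1 word. Both words had to lie within 50 bp of the summit, so the window itself limits the distance between them, and no distance was tested. The first and the second word occurred together at 25 summits, at a median distance of 30 bp between their starts, with 23 pairs within 40 bp and 14 on the same strand. The first and the third word occurred together at 19, at a median of 36 bp, and 10 were on the same strand. The second and the third word occurred together at 16, at a median of 16 bp, and 11 were on the same strand. In 6 of these, ACCGTA began 12 to 18 bp before GGCGCA on the same strand. That arrangement was noticed in the data and was not tested. It is seen in the W01D2.3 stretch printed above and in these, chosen after the spacing was seen, where the lower-case letters after ACCGTA run into the start of GGCGCA:

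mib-1, III:11290094-11290123, minus strand: tgcttggatactACCGTAatcgtttaaagg

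rpn-6.2, III:9001602-9001631, plus strand: aatacatgtgatACCGTAatcttaaaggcg

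Y62F5A.9, II:11536643-11536672, plus strand: aaatttttaattACCGTAatcctttaaagg

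fnip-2, IV:2223325-2223354, minus strand: caacgcgggggtACCGTAgtctccaaggcg

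The sequence at gene-body summits was slightly richer in G and C than beside them. The mean GC content was 39.6% within 50 bp of the summit and 37.6% in the flanking window. It was higher at the summit in 139 of 235 peaks without a tie (59.1%, exact 95% interval 52.6% to 65.5%, exact sign test, adjusted p = 0.00689). In the exact sign test the call was lost without replicate 2 (56.5%, adjusted p = 0.0648), and with windows of 100 bp on each side the share was 51.5% (adjusted p = 0.799). Median GC was 45.5% at coding-exon summits, 38.6% at intronic and 36.6% at 3′ UTR summits.

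Soft-masked sequence, which the genome file marks as repetitive or of low complexity, held 86 of 161 intronic summits (53.4%), and 51.9% of eligible intronic bases are masked. In coding exons the shares were 7.69% of summits and 7.90% of bases, and in 3′ UTRs 34.1% and 42.2%. In all 3 features the share of bases lay inside the interval of the share of summits. Other annotated genes were also counted. Within 200 bp lay an ncRNA gene for 11 summits (4.47%, exact 95% interval 2.25% to 7.86%), against 2.30% of eligible bases, a piRNA gene for 1 (0.407%, 0.0103% to 2.24%), against 2.34%, a pseudogene for 2 (0.813%), against 0.558%, and an antisense RNA gene for 1 (0.407%), against 0.151%.

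Distances from gene-body summits to 5′ ends were also counted. No matching values were taken over eligible sequence, so they do not show whether the summits differ from gene bodies at large. The distance to the nearest protein-coding 5′ end had a median of 978.5 bp and ran from 203 to 20305 bp. That 5′ end belonged to the host for 180 peaks (73.2%) and to another gene for 66. Upstream of a 5′ end by 501 to 1000 bp lay 47 summits (19.1%), 22 of them upstream of a gene other than the host. Among them were M117.3, 727 bp upstream of par-5, which encodes a 14-3-3 protein of cell polarity, and mib-1, 816 bp upstream of smc-3, which encodes a cohesin subunit. Both summits lay nearer to other 5′ ends. The M117.3 summit was 445 bp downstream of the 5′ end of M117.3 itself, and the mib-1 summit 492 bp downstream of that of gly-9.

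Peaks just outside and just inside the promoter window had scores in the same range, given here without a test. Beyond the downstream edge by at most 100 bp lay 22 gene-body summits with a median score of 108, and inside that edge by as much lay 38 promoter summits in gene bodies with a median of 95.1. At the upstream edge there were 12 outside with a median of 111.6 and 17 inside with a median of 99.4. Nearest to the downstream edge were pyp-1, 203 bp from its 5′ end (421), T27F6.6 at 208 bp (181), C13B9.2 at 213 bp (100), Y75B8A.33 at 214 bp (286), and nrps-1 (134) and mmaa-1 (72.2) at 218 bp. Nearest to the upstream edge were F20G4.2, 510 bp upstream of F55D12.5 (321), mask-1 at 517 bp (205), F42H10.6 at 533 bp (122), C17H12.2 at 536 bp (160) and coh-3 at 541 bp upstream of F08H9.2 (68.4).

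Host genes often had a promoter peak of their own. A summit lay in a promoter window of 47 of the 232 hosts (20.3%, exact 95% interval 15.3% to 26.0%), against 6.68% of all protein-coding genes. Hosts were longer than other genes, and this share was not tested against length. It was 7.89% among the 921 strongest peaks, where 3.70% of all genes had a promoter summit.

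Hosts from the germline gene lists were few in number, but their share was above that of all genes in several lists. In other lists there was none. Read against the 1.16% of all genes that hold a gene-body summit, translational control of the germline had 3 of 40 genes (7.50%) as hosts, and 67.5% with a promoter summit. The hosts were spn-4 (3′ UTR, 128) and mex-5 (3′ UTR, 65.8), which encode RNA-binding proteins of oocyte and embryo, and pie-1 (coding exon, 75.5), a germline fate factor. All 3 also had promoter summits. The synaptonemal complex and meiotic axis list had 1 of 19 (5.26%), the cohesin kleisin gene coh-3 (3′ UTR, 68.4).

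Recombination and pairing had 2 of 44 (4.55%), the nuclease gene xpf-1 (intron, 94.1) and parg-1 (3′ UTR, 65.9), which encodes a poly(ADP-ribose) glycohydrolase. Germline chromatin had 1 of 44 (2.27%), the histone methyltransferase gene met-1 (intron, 191). The kinetochore, spindle and cell cycle list had 2 of 73 (2.74%), klp-7 (1038) and spd-5 (80.2), which encodes a centrosome scaffold protein. There was no host among 49 genes of P granules and small RNA pathways, and none among 40 of DNA replication. Apart from klp-7 and met-1, these germline and cell-cycle members had scores at or below the list median.

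The other lists also had low counts, with shares on either side of the 1.16% of all genes. Cytosolic ribosomal proteins had 1 of 82 (1.22%), rla-1 (98.5). Muscle genes had 1 of 48 (2.08%), unc-60 (96.6), which encodes an actin depolymerising factor. Neuronal genes had 2 of 225 (0.889%), the neuropeptide gene flp-16 (88.4) and the kinesin gene unc-104 (71.6). Homeobox and nuclear hormone receptor genes had 2 of 348 (0.575%), nhr-64 (584) and ceh-8 (152). Chemoreceptors had 2 of 1292 (0.155%), sre-45 (152) and sra-35 (107). The list of epidermis and cuticle collagens had 0 of 189. With so few hosts per list, none of these counts was tested.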

How the data were processed

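The 2 biological replicates form 1 group. Peaks were called per replicate and on pooled alignments with a control alignment, and an IDR-thresholded list was made from them, per the deposited descriptions of the files. The aligner, caller and IDR cut-off are not given in the sources used here. The deposited signalValue is a score from the authors' caller and served here only for comparisons inside 1 list. The deposited −log10 q was 3.78 for every IDR-thresholded peak and ranked none. The deposited summit offset gave each summit. No list holds read counts, so depth is unknown and intervals cover only the number of peaks. No list from untagged worms was used, and the ce10 lists were not used here.

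Summits were placed on WBcel235 (annotation release 115, RefSeq genome sequence), where a promoter window took precedence over exons, and exons (coding first, UTRs next) over introns. Rates were compared by exact conditional tests, shares by Fisher's exact tests, and summit against flank by exact sign and McNemar tests. These were adjusted after Benjamini and Hochberg over 8, 6 and, for tests added later, 2 tests, at a threshold of 0.05. Tests were tried on simulated data. The members, the 13 gene lists and the rules were chosen with earlier results of these data known. Named genes are hosts of the 20 highest summits, the 3 highest per feature and per list, the highest on X and the 5 nearest each window edge with ties. Hosts of paired summits, of summits missed by the replicates and of nearby 5′ ends were named after their values were seen. Software versions were scipy 1.17.1, numpy 2.4.6, matplotlib 3.10.9 and pandas 2.3.3 under Python 3.11.15.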

Additional observations from a re-analysis of the deposited data

How the results depend on the processing

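Of 180 values under alternatives, 141 kept their direction and side of the threshold or stayed within the limit for a value without a test. The cause of the others was not tested. No paired analysis was possible because there is only 1 group. Without either replicate in turn, the gene-body share of the list was 13.0% to 15.3%, the ratio of the 5′ to the 3′ portion of hosts 0.747 to 0.861, the share with higher GC at the summit 56.5% to 57.8%, and the differences from promoters −4.63 to 2.59 points for GAGACC and −5.79 to −4.88 for ACCGTA. Among the 921 strongest peaks the list share was 8.69%, the 3′ UTR to intron ratio 1.29, the score differences −9.74 (promoter) and −9.21 points (intergenic), the replicate difference from intergenic peaks −6.83, the GC share 59.2%, hosts with a promoter summit 7.89%, genes with a gene-body summit 0.381%, and the word differences from promoters 2.56 (GAGACC), 9.97 (GGCGCA) and 2.64 points (ACCGTA). With 2 times as many pooled peaks these were 22.2% (list), 0.690 (5′ to 3′), 27.7% (hosts), 3.66% (genes), −5.20 (GAGACC) and −5.25 points (GGCGCA), the last 2 past the threshold. The narrow window gave 19.4%, 1.3, 11.6% and 1.69% for list, 5′ to 3′, hosts and genes. The wide window gave 8.85% (list), 0.949 (first to later introns), 0.668 (5′ to 3′), 55.8% (GC) and 0.766% (genes). With no distance from small RNA genes the list share was 16.1%, the 5′ to 3′ ratio 0.916 and the gene share 1.36%. With 1 summit per interval the 5′ to 3′ ratio was 0.995. Word windows of 100 bp each side gave 51.5% (GC) and 0.448 points (GAGACC against promoters).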
